A study of Mus musculus with 11 samples.

Results

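Stitched H3K27ac domains were runs of acetylated chromatin that span at least 10 kb, and 709 of them were found among 19447 acetylated regions of the mouse tumour line M00002. They were selected on measured values: H3K27ac peaks of antibody ac4729 that did not overlap an IgG peak of either line were joined when the gap between them was at most 12500 bp. A region was kept when it spanned at least 10 kb and held at least 4 ac4729 peaks and at least 1 peak of a second H3K27ac antibody, ac647. The size of the domains, their ac4729 peaks and their ac647 peaks are therefore given as a description only. The 7 libraries that the selection did not use were HA and p65 of M00002 and HA, Cbp, p300, S2 and S5 of the line M00001.

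The libraries were made by CUT&RUN, in which a nuclease tethered to an antibody cuts the DNA around its target, and the freed fragments are sequenced. M00002 and M00001 are untreated mouse tumour-derived cell lines, each labelled with 1 mouse identifier, grown on Matrigel in neural basal medium with bFGF and EGF. Both are labelled Fus1 and their HA libraries carry the label HA-tagged CRfus1, taken here as the fusion of ZFTA and RELA in the title of the series. HA and IgG were profiled in both lines, ac4729, ac647 and p65 in M00002, and Cbp, p300 and Rpb1 with antibodies S2 and S5 in M00001. There were 11 libraries, 1 per target and line, and no line without the fusion, so no value has a replicate and no line serves as a control for the fusion. Any comparison of HA between the lines is also a comparison of 2 libraries. No H3K27ac library of M00001 was among the 11, so whether M00001 has these domains is unknown. Its libraries are read here against acetylation of M00002.

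H3K27ac, acetylation of lysine 27 of histone H3, marks active promoters and enhancers. Cells often carry it in clusters of closely spaced elements, called stretch or super-enhancers when they are large and strongly acetylated, and such clusters are known to lie at genes that define the identity or the tumour state of a cell. The acetylation is laid down by the related acetyltransferases Cbp and p300. The fusion of ZFTA and RELA is the main oncogenic event of supratentorial ependymoma, a glial tumour of the cerebral hemispheres, and it holds most of RELA, the p65 subunit of NF-kappaB. In the p65 library, the fusion and endogenous p65 cannot be told apart. S2 and S5 name antibodies to Rpb1, the large catalytic subunit of RNA polymerase II; phosphorylation of its tail at serine 5 is known from initiating and at serine 2 from elongating polymerase.

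RefSeq promoter windows, each from 250 bases before to 50 after an annotated start (build GRCm38.p6, the assembly behind mm10), were available for 32619 starts on the chromosomes analysed. Of these, 532 windows of 471 genes overlapped an ac4729 peak of a domain, and 122 of the 532 also overlapped HA of both lines and p65. The letters GGNNTTTCC, a simplified kappaB motif of the kind that p65 is known to bind, were searched on both strands, where N is any base. They occurred in 14 of those 122 windows (11.5%), in 11 of the 226 domain windows with neither HA nor p65 (4.87%), in 42 of all 532 domain windows (7.89%) and in 1910 of all 32619 windows (5.86%). Among the 773 acetylated windows outside domains with HA of both lines and p65, the share was 6.86%. The AP-1 letters TGANTCA, which read the same on both strands and can share no base with a kappaB match, were in 9.02% of the 122 windows, 8.41% of the 226, 7.14% of the 532 and 7.85% of all windows. A match is a run of letters and not a measured binding site, and windows of neighbouring starts can share 1 match. The 5 promoters printed here had HA of both lines, p65 and a kappaB match, and carried the highest HA fold of M00002 among such windows, 1 per HA peak. The promoter of Gmeb1, from a domain with neither HA nor p65, stands beside them. Capitals mark kappaB matches.
Rabgap1 promoter, chr2:37443035-37443334, plus strand: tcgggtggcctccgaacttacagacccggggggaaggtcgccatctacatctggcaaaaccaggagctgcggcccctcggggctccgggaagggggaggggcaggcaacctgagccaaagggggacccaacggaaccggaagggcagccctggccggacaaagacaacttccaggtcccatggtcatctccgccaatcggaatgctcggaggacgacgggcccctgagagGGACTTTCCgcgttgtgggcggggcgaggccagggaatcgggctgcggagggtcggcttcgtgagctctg
Cxcl2 promoter, chr5:90903649-90903948, plus strand: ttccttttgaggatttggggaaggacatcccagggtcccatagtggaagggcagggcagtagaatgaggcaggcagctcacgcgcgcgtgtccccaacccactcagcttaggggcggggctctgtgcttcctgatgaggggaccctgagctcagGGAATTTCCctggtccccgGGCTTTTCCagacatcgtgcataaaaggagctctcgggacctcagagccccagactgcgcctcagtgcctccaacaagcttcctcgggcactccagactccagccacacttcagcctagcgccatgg
Dmac2 promoter, chr7:25619164-25619463, plus strand: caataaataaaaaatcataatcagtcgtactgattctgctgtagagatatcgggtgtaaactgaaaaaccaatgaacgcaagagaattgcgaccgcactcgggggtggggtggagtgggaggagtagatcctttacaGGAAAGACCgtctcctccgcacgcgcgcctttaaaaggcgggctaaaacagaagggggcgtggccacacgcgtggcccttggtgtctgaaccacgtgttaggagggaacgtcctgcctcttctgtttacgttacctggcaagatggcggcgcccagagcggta
Cxcl1 promoter, chr5:90890995-90891294, plus strand: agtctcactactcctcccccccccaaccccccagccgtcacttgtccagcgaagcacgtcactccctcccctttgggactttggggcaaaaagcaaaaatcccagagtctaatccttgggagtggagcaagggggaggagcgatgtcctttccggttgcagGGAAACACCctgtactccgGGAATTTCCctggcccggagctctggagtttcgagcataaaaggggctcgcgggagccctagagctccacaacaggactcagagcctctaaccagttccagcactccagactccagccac
Pnrc2 promoter, chr4:135873797-135874096, minus strand: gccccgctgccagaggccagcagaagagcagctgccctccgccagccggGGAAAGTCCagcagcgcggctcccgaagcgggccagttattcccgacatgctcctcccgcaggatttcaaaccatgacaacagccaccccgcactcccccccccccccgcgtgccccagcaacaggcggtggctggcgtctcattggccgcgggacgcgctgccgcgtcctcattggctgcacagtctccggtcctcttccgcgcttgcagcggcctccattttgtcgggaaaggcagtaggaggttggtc
Gmeb1 promoter, chr4:132261500-132261799, minus strand: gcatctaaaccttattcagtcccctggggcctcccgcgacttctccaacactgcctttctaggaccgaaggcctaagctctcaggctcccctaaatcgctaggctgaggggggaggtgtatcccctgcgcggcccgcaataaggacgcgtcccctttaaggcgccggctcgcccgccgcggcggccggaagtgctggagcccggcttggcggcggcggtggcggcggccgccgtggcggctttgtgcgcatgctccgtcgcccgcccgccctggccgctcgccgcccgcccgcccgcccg

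The first window, which overlaps that of the divergent gene Zbtb26, had a peak fold of 21.9 for HA of M00002, 16.9 for p65 and 9.02 for HA of M00001. Fold is the enrichment at the summit of a peak over the background of the peak caller, as the authors deposited it, and it is compared here only within a library. The promoters of Cxcl2 and Cxcl1, chemokines that attract neutrophils and are known NF-kappaB targets, overlapped the same domain of 28540 bp, chr5:90875334-90903873. Their HA folds in M00002 were 19.3 and 18.7, their p65 folds 11.1 and 12.3, and their HA folds in M00001 were 6.20 and 6.61. Each promoter held 2 kappaB matches. The window of Cxcl2 ran past the end of the domain, and its annotated start lay just outside. The other 2 ac4729 peaks of that domain had no p65 and no HA of M00001, and 1 of them had HA of M00002, with a fold of 5.98. Dmac2, which encodes a mitochondrial protein, had an HA fold of 18.8 in M00002, a p65 fold of 11.3 and an HA fold of 12.1 in M00001. Pnrc2, whose product takes part in mRNA decay, had folds of 18.1, 19.4 and 8.45 for the same libraries. Its window overlapped the ac4729 peak only at its edge, and its HA and p65 peaks and its kappaB match lay outside that peak. Of these 5 windows, that of Cxcl1 alone also had p300, with a fold of 3.32. The window of Gmeb1, which encodes a DNA-binding protein, overlapped an ac4729 peak with a fold of 5.19 and had no kappaB match.

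Domains also held 37 of the 1005 microRNA hairpins in the RefSeq table (3.68%), spread over 31 domains. The mature forms below are shown because their loci illustrate a shared seed and a well-known tumour microRNA. Capitals mark the seed, bases 2 to 8. miR-195a-5p and miR-497a-5p, of the miR-15 family that restrains the cell cycle, have the same seed and lie in 1 domain on chromosome 11. miR-21a-5p, which is raised in many tumours, lies in a domain at the end of Vmp1.
mmu-miR-195a-5p: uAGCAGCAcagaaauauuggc
mmu-miR-497a-5p: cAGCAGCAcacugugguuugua
mmu-miR-21a-5p: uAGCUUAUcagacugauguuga
The domain of miR-195a and miR-497a had 4 ac4729 peaks over 1015 acetylated bp, 2 HA peaks of M00002, 1 p65 peak and 4 S2 peaks. It had none of HA of M00001, Cbp or p300. The domain of miR-21a had 4 ac4729 peaks, 1 HA peak of M00002 and no p65. Peaks at these loci say where acetylation lay, not whether the microRNAs were made.

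The domains were long and sparsely acetylated. Their span had a median of 22997 bp and ran between 10007 and 110319 bp, and the middle of the distribution, between the quartiles, lay between 18054 and 30496 bp. They held 3631 ac4729 peaks, 4 to 16 per domain with a median of 5, and 328 domains had exactly 4. The acetylated length had a median of 2795 bp and the share of the span under ac4729 peaks a median of 12.1%, with extremes of 3.95% and 33.5%. Of 18107 kb spanned in all, 2150 kb lay under ac4729 peaks and 15957 kb in the gaps between them. The domains took in 12.6% of all ac4729 peaks and 13.2% of the acetylated length.

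**Figure D1:**
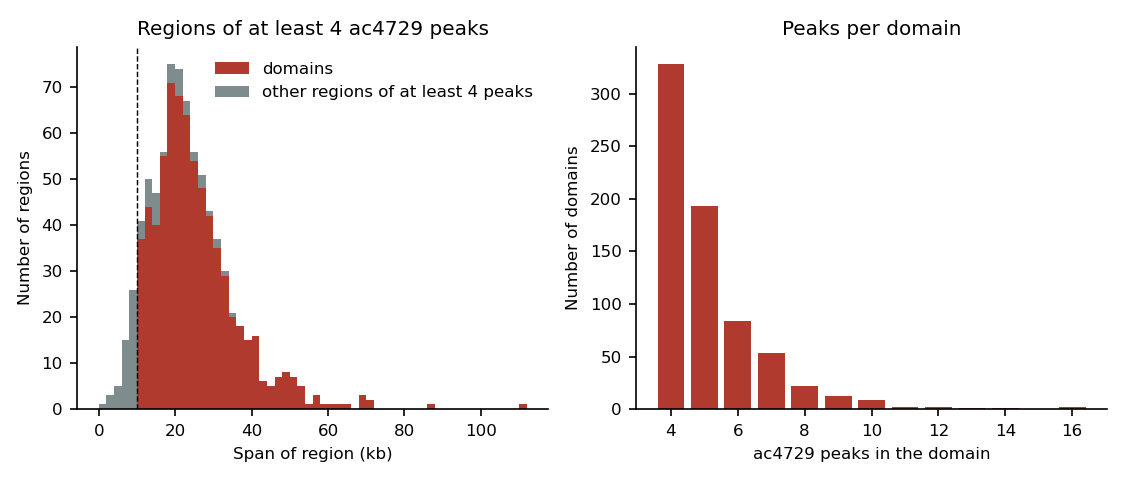
Left, number of regions with at least 4 ac4729 peaks by span in classes of 2 kb, with domains in red and regions that failed a condition in grey; the dashed line is 10 kb. Right, number of domains by ac4729 peaks per domain; 328 of 709 had 4 peaks.

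The thresholds cut through a continuous distribution. A further 41 regions met the span and the number of ac4729 peaks but had no ac647 peak, 50 had at least 4 ac4729 peaks under 10 kb, and 1548 reached 10 kb with fewer than 4 peaks. The 5 narrowest domains spanned 10007 to 10276 bp and held 1 to 5 HA peaks of M00002. They lay at Arrdc3, Ddit4 and Stard5, and between genes at 84160 bp from Zfp36l1 and 69270 bp from Cav2, the nearest genes. The 5 widest excluded regions under 10 kb, with 4 ac4729 peaks each, spanned 9504 to 9964 bp and held 1 to 3 HA peaks of M00002. Ddit4, a stress-induced inhibitor of mTORC1, had the most HA and p65 of these narrow domains, with 5 HA peaks of M00002, 4 p65 peaks and 2 HA peaks of M00001 within 10098 bp.

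A single ac4729 peak of a domain was close to other ac4729 peaks in width. The median width was 472 bp in domains and 450 bp outside. The median fold was 3.58 in domains and 4.03 outside, and the median −log10 q was 4.12 in domains and 3.85 outside. Within 1 kb of the end of a protein-coding gene lay 19.3% of the ac4729 peaks in domains and 24.8% of those outside. These measures belong to the library that chose the domains and are given without a test. The same holds for ac647, which overlapped 57.9% of domain peaks and 33.7% of other peaks, with 36.7% over all ac4729 peaks.

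More ac4729 peaks of domains than of other regions overlapped HA and p65. HA of M00002 overlapped 1538 of 3631 domain peaks (42.4%) and 32.2% of the 25183 other peaks, with 33.4% over all. The difference was 10.2 percentage points, with a 95% interval of 8.50 to 11.9. p65 overlapped 31.1% of domain peaks and 21.2% of other peaks, with 22.4% over all and a difference of 9.86 points (8.29 to 11.5). HA of the second line showed the same order on these ac4729 peaks of M00002. HA of M00001 overlapped 19.1% of domain peaks and 11.6% of other peaks, with 12.6% over all and a difference of 7.42 points (6.12 to 8.79). HA of both lines together overlapped 17.3% of domain peaks and 10.3% of other peaks, with 11.2% over all. These intervals cover counting error over peaks; peaks of 1 domain are neighbours and not independent, and the differences compare libraries and not conditions, so no p-value is given.

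The coactivators had fewer peaks, and their shares were lower on both sides. p300 of M00001 overlapped 10.5% of domain peaks and 6.97% of other peaks, with 7.42% over all and a difference of 3.52 points (2.51 to 4.60). Cbp overlapped 4.54% of domain peaks and 2.79% of other peaks, with 3.01% over all and a difference of 1.75 points (1.09 to 2.51). As ratios, the domain share over the other share was 1.63 for Cbp, 1.64 for HA of M00001, 1.47 for p65 and 1.32 for HA of M00002, with p300 between p65 and Cbp. For polymerase the ratios were 1.07 with S2 and 1.01 with S5. S2 overlapped 31.3% of domain peaks and 29.1% of other peaks, with 29.4% over all and a difference of 2.17 points (0.580 to 3.80). S5 overlapped 14.6% of domain peaks and 14.4% of other peaks, with 14.4% over all, and the interval of its difference held 0 (−1.01 to 1.45).

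The share of peaks with ac647 moved with these differences. Among ac4729 peaks that also had ac647, HA of M00002 overlapped 57.1% of 2104 domain peaks and 53.1% of 8481 other peaks, a difference of 3.99 points (1.61 to 6.34). Among ac4729 peaks without ac647, it overlapped 22.0% of 1527 domain peaks and 21.5% of 16702 other peaks, a difference of 0.509 points (−1.59 to 2.74). ac647 is one of the libraries that chose the domains, so these values are a description, and its part in the difference was not tested. For p65 and HA of M00001 the differences with ac647 were 5.08 points (2.73 to 7.45) and 5.18 points (3.09 to 7.33), and without ac647 they were 0.819 points (−0.848 to 2.66) and 0.705 points (−0.494 to 2.11). For p300 the difference was 2.04 points with ac647 and −0.247 points without, and for Cbp it was 1.47 and 0.0210 points. S5 was lower in domains in both classes, by −2.79 points with ac647 (−4.65 to −0.843) and −2.38 points without (−3.73 to −0.829). S2 differed by −0.524 points with ac647 (−2.82 to 1.81) and −2.09 points without (−4.22 to 0.162). This division of the peaks was chosen after the data were seen.

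**Figure D2:**
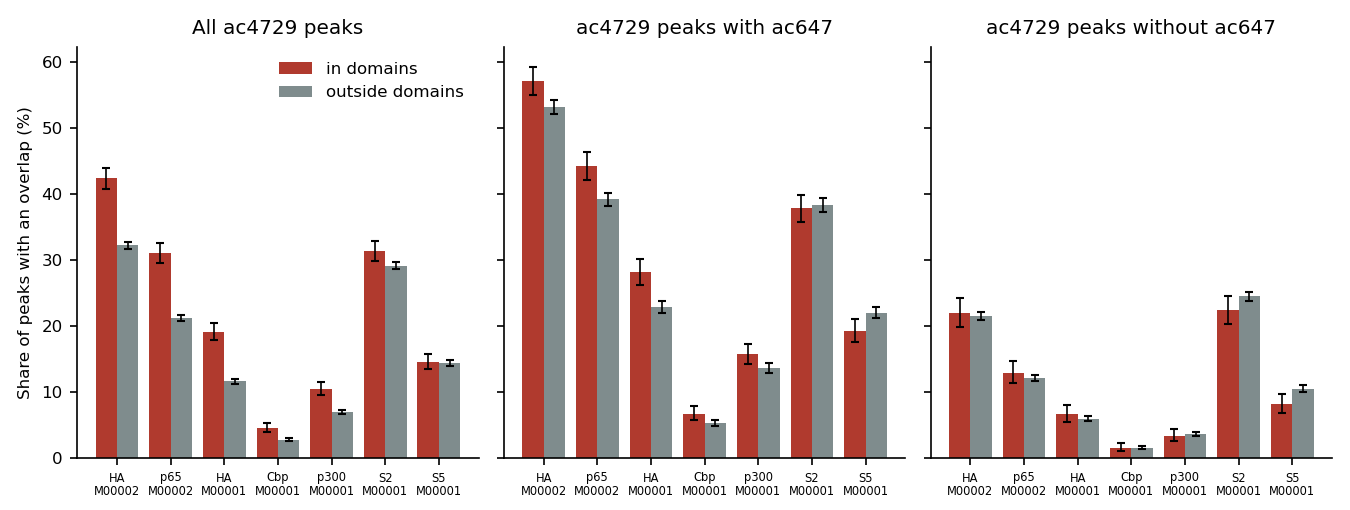
Share of ac4729 peaks, in percent, that overlap a peak of each library, for peaks in domains (red) and outside domains (grey), over all ac4729 peaks (left), those with ac647 (middle) and those without (right). Bars are shares and lines exact 95% intervals over peaks; the gap for HA of M00002 is 10.2 points over all peaks, 3.99 with ac647 and 0.509 without.

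Within the domains, shares were set out by the number of ac4729 peaks. HA of M00002 overlapped 42.8% of ac4729 peaks in domains of 4 peaks, 40.3% in domains of 5, 42.7% in domains of 6 and 43.9% in domains of 7 or more, and the intervals of these shares overlapped. HA of M00001 overlapped 17.2%, 18.5%, 20.6% and 21.5% in the same 4 classes, higher at each step, with intervals of 15.2 to 19.4 in the first and 18.8 to 24.4 in the last, which overlap. In the regions that were not domains HA of M00002 overlapped 31.6% of single peaks, 31.3% of peaks in pairs, 35.8% in regions of 3 and 32.2% of the 332 peaks in regions of 4. The share with ac647 was 28.9%, 37.1%, 45.0% and 31.9% in the same regions outside domains, and 57.9%, 57.3% and 61.8% in domains of 5, 6 and 7 or more peaks. Regions of 4 peaks outside domains had failed the rule, on span or for want of an ac647 peak. Their ac647 share was thus partly set by the selection, and they are not a fair comparison for domains of 4 peaks.

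Position near genes divided the polymerase results. Among ac4729 peaks within 1 kb of a gene end, S2 overlapped 55.9% of 700 domain peaks and 62.0% of 6254 other peaks, a difference of −6.10 points (−9.99 to −2.27). Farther than 1 kb from gene ends, S2 overlapped 25.5% of 2931 domain peaks and 18.3% of 18929 other peaks, a difference of 7.15 points (5.51 to 8.85). S5 overlapped 32.4% of domain peaks and 34.9% of other peaks near gene ends, a difference of −2.46 points whose interval held 0 (−6.03 to 1.28), and 10.3% of domain peaks and 7.61% of other peaks far from them, a difference of 2.70 points (1.58 to 3.91). The pooled difference of S2 thus held differences of opposite sign.

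Seen per domain, HA of M00002 was present in most domains, and HA of M00001 in fewer. At least 1 HA peak of M00002 lay in 660 of 709 domains (93.1%, exact 95% interval 91.0 to 94.8), p65 in 583 (82.2%), HA of M00001 in 451 (63.6%), S2 in 561 (79.1%), S5 in 388 (54.7%), p300 in 306 (43.2%) and Cbp in 169 (23.8%). HA of M00002 was in 62.2% of other regions of at least 2 ac4729 peaks and in 31.6% of single ac4729 peaks. Of the same other regions of at least 2 peaks, p65 was in 45.7%, HA of M00001 in 27.3% and S2 in 52.9%. S5 was in 31.3% of them, p300 in 17.4% and Cbp in 7.93%. A wider region with more peaks has more room for a peak of any library, so these shares of regions are a description and not a test. HA of M00002 lay on 40.0% of the ac4729 peaks of the median domain. It lay on every ac4729 peak of 19 domains and on none of 86.

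**Figure D3:**
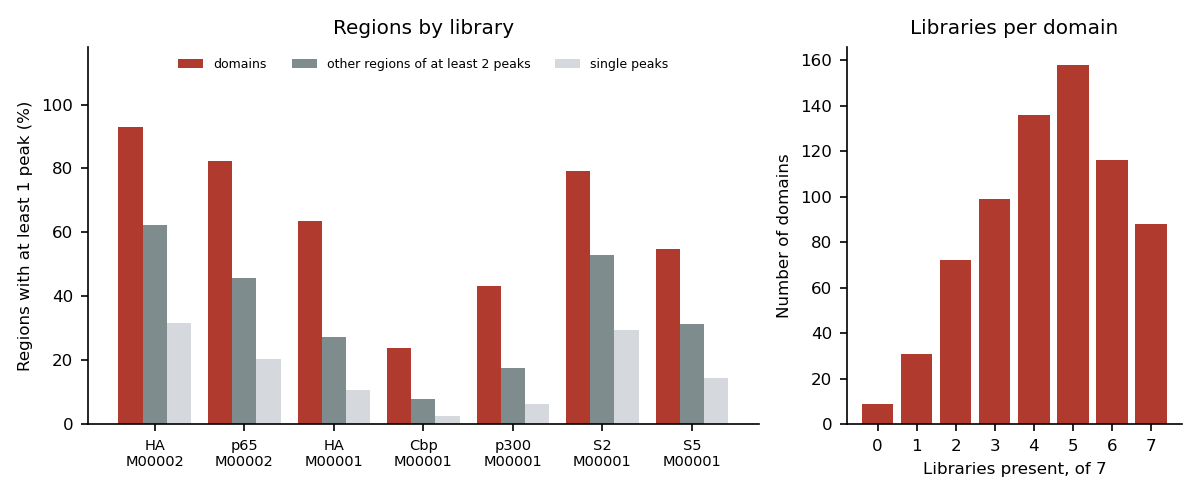
Left, share of regions in percent that hold at least 1 peak of each library, for domains, other regions of at least 2 ac4729 peaks and single ac4729 peaks; HA of M00002 is in 93.1%, 62.2% and 31.6%. Right, number of domains by how many of the 7 libraries have a peak inside; 88 domains have all 7 and 9 have none.

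Inside domains HA peaks were denser on the acetylated elements than in the gaps. Of 2246 HA peaks of M00002 in domains, 1715 (76.4%) overlapped an ac4729 peak and 531 lay in gaps. That came to 0.798 HA peaks per kb of acetylated sequence and 0.0333 per kb of gap. The share on ac4729 peaks was 80.1% for p65, 86.6% for HA of M00001, 83.8% for p300, 83.1% for S5, 81.2% for S2 and 75.8% for Cbp. HA summits of M00002 lay a median of 152 bp from the ac4729 summit, both in domains and outside.

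HA and p65 peaks on domain acetylation were also the stronger ones of their lists. The median fold of HA of M00002 was 7.85 on domain ac4729 peaks, 4.93 in domain gaps, 6.92 on other ac4729 peaks and 3.74 elsewhere. For p65 the same medians were 7.30, 4.73, 6.32 and 3.99, and for HA of M00001 they were 6.02, 4.29, 5.47 and 3.48. The order of places was the same in these 3 libraries, with wide overlap between the quartiles. S2 and S5 had another order, with medians of 3.88 and 4.22 on domain ac4729 peaks and 4.55 and 4.50 on other ac4729 peaks. Cbp and p300 hardly differed, at 3.89 and 3.99 on domain ac4729 peaks and 3.72 and 4.05 on other ac4729 peaks.

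**Figure D4:**
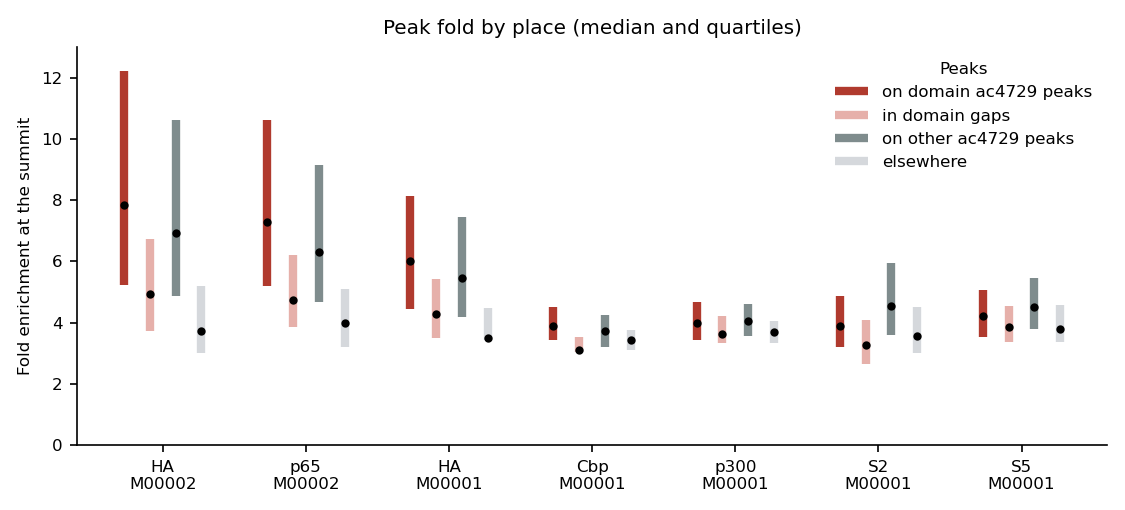
Fold enrichment at the summit of the peaks of each library by place; points are medians and bars run between the quartiles over peaks. HA of M00002 has medians of 7.85 on domain ac4729 peaks, 4.93 in domain gaps, 6.92 on other ac4729 peaks and 3.74 elsewhere; folds are comparable within a library only.

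HA sites of domains were shared with p65 and with the second line more often than other acetylated HA sites. Of the 1538 domain ac4729 peaks with HA of M00002, 68.5% also had p65 (66.1 to 70.8), against 60.8% of the 8097 other ac4729 peaks with HA (59.7 to 61.9). HA of M00001 was on 40.8% of those HA sites in domains (38.4 to 43.3) and on 32.2% outside (31.2 to 33.2). In the reverse direction, 90.8% of domain ac4729 peaks with HA of M00001 also had HA of M00002, against 88.9% of other ones, and these intervals overlapped. ac647 was on 78.2% of the domain ac4729 peaks with HA of M00002 and on 55.7% of the other ones, and its part in the first 2 differences was not tested.

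The 10 HA peaks of M00002 with the highest fold inside domains had folds of 28.4 to 67.9, and each overlapped p65. The strongest, in Capzb, which encodes an actin capping protein, had a fold of 67.9 for HA and 58.6 for p65, and also 43.2 for HA of M00001, 25.1 for Cbp and 21.9 for p300. Those 4 are the highest folds that p65, HA of M00001, Cbp and p300 reached on a domain ac4729 peak. The ac4729 fold at this site was 5.20 and that of ac647 8.62, and neither S2 nor S5 had a peak there. The domain holds 1 IgG peak of M00002, which does not overlap this site. At Plekhm2, Obsl1, Sp2, Nrg2 and Slc6a6 the site also had HA of M00001. The 3 sites on chromosome 4 near Il11ra1 and Ccl27a and near the Fam205a3 and Fam205a4 copies had HA folds of 40.4, 31.5 and 28.6 and none of HA of M00001. They lie among near-identical gene copies, where reads of 1 copy can be counted at another, so they are uncertain as separate sites.

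The domain at Cebpb, a transcription factor of inflammatory and mesenchymal programmes, was the widest and the most acetylated. It began 294 bp from the gene, at chr2:167690727-167801045, and held 16 ac4729 peaks with 10906 acetylated bp. Its 12 HA peaks of M00002, 7 p65 peaks and 7 HA peaks of M00001 were spread unevenly. Of the 16 ac4729 peaks, 7 had HA of M00002, and the strongest folds were 15.6 at the start of the predicted gene Gm14321 and 14.4 at a peak of 1393 bp, chr2:167746986-167748378. The Gm14321 element was the only 1 of the 16 with all 7 libraries. Its S5 peak was weak, with a fold of 2.84 and a −log10 q of 0.435. The 9 ac4729 peaks without HA of M00002 included 6 peaks under 500 bp wide.

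**Figure D5:**
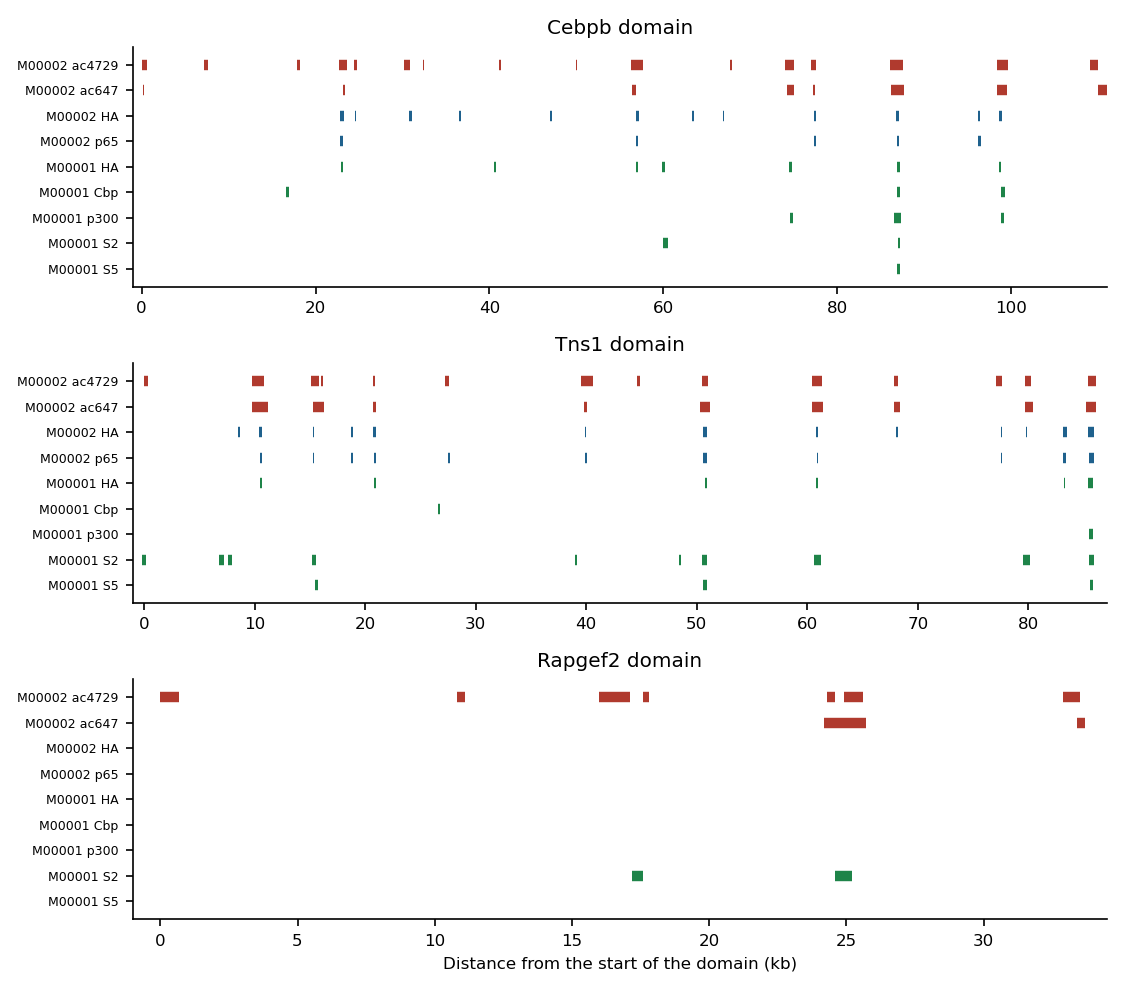
Peaks of each library in 3 domains, drawn to scale as distance from the start of the domain in kb. Cebpb and Tns1 have 12 and 13 HA peaks of M00002, mostly under ac4729 peaks; Rapgef2 has none of HA, p65, Cbp, p300 and S5.

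The other wide domains lay at genes of varied kinds. Tns1, which encodes tensin, a link between integrins and actin, held a domain of 86087 bp with 14 ac4729 peaks, 13 HA peaks of M00002, 11 p65 peaks and 6 of HA of M00001. Slc6a6, the taurine transporter, held 69175 bp with 11 HA peaks of M00002 and 8 p65 peaks. The domain with Lsp1, Tnnt3 and Mrpl23 had as many HA and p65 peaks as that of Tns1, 13 and 11, over 69032 bp. Ski, a corepressor of TGF-beta signalling, had a pair of domains: one of 68519 bp with Morn1 held 16 ac4729 peaks and 11 HA peaks of M00002, and one of 44320 bp with Faap20 held 9 of each. The domain next to Dlk1, an imprinted gene for a Notch-like ligand, was 61283 bp long and lay 1882 bp from it. There, in M00002, HA and p65 had 8 peaks each, with a p65 fold of up to 18.8. In M00001, HA had 4 peaks with a fold of up to 11.1 and S5 had 1, while Cbp, p300 and S2 had none. The Lsp1 domain likewise had few polymerase peaks, 1 of S2 and 0 of S5.

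The remaining domains of the widest, the most acetylated, the richest in HA and those with all 7 libraries were of several kinds. Osbpl3, a lipid-binding protein, had 11 HA peaks of M00002 and 5 p300 peaks. Mcl1, a survival factor of the BCL2 family, shared its domain with Adamtsl4 and had 5 HA peaks of M00002, 3 Cbp, 3 p300, 7 S2 and 5 S5 peaks. Socs3, which dampens cytokine signalling, and Pgs1 had 11 HA peaks and 4 p65 peaks. Nedd4, a ubiquitin ligase, had 10 HA peaks of M00002 over 5 ac4729 peaks, with 1 IgG peak of M00001 elsewhere in the domain. Bahcc1 had 10 HA peaks, and IgG peaks of both lines in the domain. Arhgap23 had 9 HA peaks of M00002, 8 p65 peaks and 5 of HA of M00001. The domain nearest to Wnt7b lay 52358 bp from it, with 6 HA peaks of M00002 and 1 IgG peak of M00001. That nearest to Csnk1a1 lay 19597 bp from it, with 8 HA peaks and 1 IgG peak of M00002. The domains with Gpatch3, Gpn2, Sfn and Zdhhc18, with Fignl1 and Ddc, with Ntmt1, Asb6 and Prrx2, and within Cubn had 5, 8, 10 and 6 HA peaks of M00002. The Cubn domain also held 1 IgG peak of M00002. Fignl1 and Ddc had none of HA of M00001, Cbp or p300.

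Peaks of IgG were present in some domains even though no ac4729 peak of a domain overlapped one. At least 1 IgG peak of either line lay in a gap of 71 domains, 60 for M00002 and 16 for M00001, with 102 IgG peaks in all. Without those 71 domains, the difference for S5 became −0.225 points and no other of the 8 changed sign. The difference for S2 became 1.62 points, with an interval that then held 0 (−0.0475 to 3.33).

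Of the 709 domains, 88 had all 7 libraries (12.4%) and 432 had HA of both lines and p65 (60.9%). Neither combination was counted in other regions. The 88 had a median span of 29862 bp and 3814 acetylated bp, against 22997 and 2795 bp over all domains. The 34 domains with neither HA of either line nor p65 had medians of 19644 bp and 2174 acetylated bp. The median span was thus larger in domains with all 7 libraries and smaller in those with neither HA nor p65. A wider domain has more room for a peak of any library, so this order is a description and not a test. The 10 most acetylated of the 34 lay at Rapgef2, Ttc39b, Lhfp, Pdlim5, Arid5b, Psd3, Dst, Dab2ip and Gmeb1, and between genes at 223847 bp from Gulp1. Rapgef2, an activator of the GTPase Rap1, held 7 ac4729 peaks with folds of 2.92 to 4.10 and 4003 acetylated bp. It had 2 S2 peaks and none of the other 6 libraries. The domain nearest to Gulp1, an engulfment adaptor, and that of Gmeb1 had none of the 7. At Ttc39b, Lhfp, Pdlim5, Arid5b, Psd3 and Dst the domain had p300, and at Dab2ip it had 3 S2 peaks.

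By position, 360 domains (50.8%) held an end of a protein-coding gene, 247 (34.8%) lay inside a gene and 102 (14.4%) lay between genes, at a median of 42858 bp from the nearest. S2 differed with position and overlapped 37.3% of ac4729 peaks in domains with a gene end, 29.1% in those inside a gene and 14.9% in those between genes. S5 overlapped 18.7% with a gene end, 9.48% inside a gene and 12.3% between genes. HA of M00002 overlapped, in the same order of positions, 45.4%, 37.4% and 43.7%, p65 overlapped 32.9%, 28.5% and 30.8%, and p300 11.1%, 8.61% and 13.1%. Between genes, S2 was thus lowest and p300 highest of the 3 positions, and HA of M00002 and p65 lay between those of the other positions. Chromosome 2 had the most domains, 66, and X the fewest, 2.

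The domains held an end of 662 of 21631 protein-coding genes (3.06%). Of 168 genes on 14 lists drawn up from general knowledge, 18 (10.7%) had an end in a domain. That share is a description, and no list was tested. The AP-1 and Ets list had 4 of 15 (26.7%): Fos, Junb, Ets1 and Egr1, transcription factors that respond to growth signals. Fos had 7 HA peaks of M00002 in 48817 bp, with 1 IgG peak of M00002, Junb had 4 and Egr1 6. All 4 had HA of M00001 in the domain, with 1 to 3 peaks. Of 20 NF-kappaB genes 3 had an end in a domain, Cxcl1, Vcam1 and Rela. Vcam1, a cell adhesion molecule, had 3 HA peaks of M00002 but neither p65 nor HA of M00001.

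Of 14 genes of ependymoma, 3 had an end in a domain. Rela, whose product is part of the fusion and which is also on the NF-kappaB list, had 3 HA peaks of M00002 and 3 p65 peaks in 17492 bp and none of HA of M00001. Ccnd1, the cyclin D1 gene, had 2 HA peaks of M00002, 1 p65 peak and 1 HA peak of M00001. Igf2, a growth factor, had 4 HA peaks and 4 p65 peaks of M00002. Of M00001 it had 1 HA peak and none of Cbp, p300, S2 or S5. Lhx2, a homeobox factor of the forebrain, had no end in a domain, but a domain of 10968 bp lay inside the gene. That domain had 4 HA peaks of M00002, 2 p65 peaks and 1 HA peak of M00001, and an end of Lhx2 lay within 5 kb of it. These genes were listed for this tumour type and are not independent evidence of it.

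Lists of cell types and other pathways had few members with an end in a domain. Vim, an intermediate filament of glia and mesenchyme, was the 1 of 18 radial glia genes, with 2 HA peaks of M00002 and 1 peak each of the other 6 libraries. The bodies of Lhx2, Nfia and Nfib, of the same list, also overlapped domains, which made 4 of 18 by gene body. Myrf, a myelin regulator, was the 1 of 12 oligodendrocyte genes and touched 2 domains, with 1 and 8 HA peaks of M00002. Cd68 was the 1 of 10 genes of microglia and leukocytes, in a domain with 5 other genes. Pdgfrb was the 1 of 12 receptor tyrosine kinases, with 4 HA peaks of M00002. None of 12 ependymal, 12 neuron, 10 astrocyte, 10 endothelium and 12 Notch and Hedgehog genes had an end in a domain, although the body of Gli3 overlapped one. Housekeeping genes were in domains too, 3 of 10 (30.0%), the highest share of the 14 lists, among them Eef1a1 with 3 HA peaks of M00002 and Rplp0 with 1. Of 12 genes of cytoskeleton and matrix, 2 were in domains: Actb with 7 and Myh9, the non-muscle myosin chain, with 8 HA peaks of M00002. Where several genes share a domain, its peaks cannot be assigned to 1 of them.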

How the data were processed

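Per the submitters' processing notes, reads were handled with Bowtie2 2.3.5.1, Trim Galore, FastQC, deepTools and MACS2 on mm10; no settings are stated there. The authors deposited 1 peak list per library, with a score, a fold (a ratio over background), a −log10 p-value and a −log10 q-value per peak, all the authors' own values. The smallest deposited −log10 p was 3. No limit on q was set for the main results, so peaks counted as present include some with a low −log10 q. Examples are Cbp at Tns1 with 0.410 and p300 at Pdlim5 with 0.256. Which control the caller used is unstated. In M00002, HA and p65 have 120 bp in their list names, and in M00001 the titles of Cbp, p300, S2 and S5 share a code; neither mark is explained. Read depth is unknown.

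Chromosomes 1 to 19 and X were used, with peaks that overlap an IgG peak of either line removed from every list. Of 29409 ac4729 peaks, 28814 remained. Overlap meant at least 1 bp. Shares carry Clopper-Pearson and differences Newcombe 95% intervals (Python 3.11.15, scipy 1.17.1). Overlap and stitching were checked against bedtools 2.31.1 on simulated peaks. Genes came from GRCm38.p6 in a table without strand or exons; 17274 of 21631 had a promoter window. Named domains were the 10 widest, most acetylated and richest in HA, the 10 most acetylated with all 7 libraries and with neither HA nor p65, and the 5 narrowest. Printed promoters and motif letters were chosen after the values were seen. Members and lists were chosen with earlier results of these data known. Alternatives were other gaps, spans, q limits, overlaps, windows and IgG handling, peak classes, domains built from ac647, and gene windows. Some genes are not reported here.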

Additional observations from a re-analysis of the deposited data

How the results depend on the processing

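The number of domains depended on the stitching: 29 with a gap of 5 kb, 1250 with 20 kb, 462 with a span of at least 20 kb, 59 with −log10 q of at least 5 in every list, and 406 built from ac647, against 709. Of the 709, 273 (38.5%) overlapped 1 of the 406, and 269 (66.3%) of the 406 overlapped 1 of the 709. The numbers of genes and the other counts of domains stayed within 1.5 times. In percentage points, with a gap of 5 kb the differences were 23.1 for HA of M00002, 25.8 for p65, 14.6 for HA of M00001, 34.9 for ac647, −5.38 for S2 and −2.39 for S5. With 20 kb they were 4.04 for S2 and 21.9 for ac647. With q of at least 5 they were 18.6 (HA of M00002), 18.4 (p65), 14.2 (HA of M00001), 3.02 (Cbp), 5.11 (p300), −5.06 (S2) and 33.0 (ac647). With IgG-overlapping peaks kept they were 8.90 (HA of M00001), 4.29 (Cbp), 5.74 (p300), 3.96 (S2) and 1.95 (S5). Near gene ends S2 was −6.10 and S5 −2.46, and far from them 7.15 and 2.70. Only peaks with ac647 gave 3.99 (HA of M00002), 5.08 (p65), 5.18 (HA of M00001), 2.04 (p300), −0.524 (S2) and −2.79 (S5), and those without gave 0.509, 0.819 and 0.705 for the first 3, 0.0210 (Cbp), −0.247 (p300), −2.09 (S2) and −2.38 (S5). S5 was −0.0566 with no condition on ac647 and −0.225 without domains that hold an IgG peak. ac647 was 21.4 with no condition on it, 22.1 with 50% overlap and 18.6 against regions of at least 2 peaks. The cause was not tested for any of these. Over all 110 results of alternatives, 68 kept their direction and stayed within the 95% interval of the reported difference (for counts, within 1.5 times), 30 moved and 12 changed sign. Among the 68, the interval of S5 no longer held 0 with a gap of 20 kb (1.23; 0.293 to 2.20), while intervals newly held 0 for S2 without domains that hold an IgG peak (1.62; −0.0475 to 3.33) and, with a gap of 5 kb, for Cbp (1.51; −0.930 to 6.49) and p300 (3.12; −1.04 to 9.50). HA of either line, p65 and Cbp changed sign in none. No paired analysis was possible because each target has 1 library per line and no test was run. No replicate could be left out. Without read depth, an absent peak may be an undetected one.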

Other observations

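Some domains lay close to another domain. Within 50 kb of another domain lay 125 of the 709, in 59 runs of at most 3. Closeness was not counted for other acetylated regions, so this number is a description and has no baseline. Prdm16, a transcriptional regulator of neural stem cells, carried a run of 3 domains over 149 kb with 17 HA peaks of M00002 and 14 p65 peaks. In that run, 1 domain ended at base 154536483 of chromosome 4 and the next began at base 154549657. A stitching gap of 20 kb would join them, so such neighbours are separate only under the gap used. Rad51b, a gene of DNA repair by recombination, carried a run of 3 over 97.6 kb with 2 HA peaks of M00002 and 1 p65 peak. Both genes were picked after their values were seen. Of the domains, 44 held an end of at least 4 protein-coding genes, and the most in 1 domain was 12. A domain with 12, at Ifnz on chromosome 4, held 3 IgG peaks of M00002, 1 IgG peak of M00001 and no p65. Genes per region were not counted outside domains.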
